A study of Bos taurus with 23 samples.

Results

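The transcripts described here are those of LYZ (ENSBTAG00000026779), ANG (ENSBTAG00000045492) and DMBT1 (ENSBTAG00000022715), 3 of the 24616 genes counted in the peripheral white blood cells (PWBC) of 23 beef heifers. They were selected on their counts in 1 of the 2 herds, station A, where their levels differed between pregnancy outcomes, so their differences in that herd are given as a description and without a test. The other herd, station B, was not used in the choice. The correlations between the 3 genes were not used either, although the spread of each gene among heifers of the same outcome in station A enters the P values that selected it.

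All heifers were pubertal Angus x Simmental crosses that received the same synchronization of estrus with GnRH, a progesterone insert and prostaglandin, followed by fixed-time artificial insemination (AI). Blood was drawn immediately after AI, before the outcome existed, and RNA was taken from the buffy coat after red cells had been lysed, so each library is a mixture of white cell types from 1 animal. In station A, 6 of the sequenced heifers had conceived to AI (AI-pregnant) and 5 had conceived to a bull afterwards (NB-pregnant). In station B, 6 were AI-pregnant and the other 6 were still open when the breeding season ended (non-pregnant). The breeding season of station B was shorter than that of station A. The heifers of a station were picked for similar age and body traits, and the outcome set against AI-pregnant is not the same in both herds. Heifers are numbered within their group in the order of deposit.

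The 3 genes encode proteins with roles in innate defence. LYZ encodes lysozyme C, which cuts the peptidoglycan of bacterial cell walls and is made in quantity by monocytes and macrophages. ANG encodes angiogenin, a secreted ribonuclease of the RNase A family that cleaves tRNA in stressed cells, promotes the growth of vessels and has been credited with antimicrobial activity. DMBT1 encodes a large glycoprotein built of scavenger receptor cysteine-rich domains, known from mucosa and saliva, where it binds and agglutinates bacteria. In a mixture of white cells, fewer cells of a type and less RNA per cell cannot be told apart.

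In the RefSeq gene order of a later bovine assembly, LYZ lies near LYZ3, with LOC787241 between them. ANG lies between RNASE4 and ANG2, both members of its own family. Read pairs that aligned to several places had been removed before counting, so pairs that such relatives share would have been lost, and the counts of LYZ and ANG are uncertain by an amount that was not measured. The names of ANG and DMBT1 rest on the annotation that the study assigned to the identifiers.

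Lysozyme was among the most abundant messages of these cells, whereas DMBT1 lay near the limit of what the libraries could count. Across the 23 libraries LYZ ranged from 454.7 to 2146 CPM (the read pairs of a gene per 1000000 pairs counted on genes in the library), with a median of 959. ANG ranged from 5.73 to 29.5 CPM, with a median of 9.14. DMBT1 ranged from 0.218 to 9.12 CPM, with a median of 1.54.

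To compare the genes with each other, their values were also read per length, as FPKM. These are read pairs per kilobase of gene length and per 1000000 pairs counted on the genes retained in the station. On that scale the median was 603 for LYZ, 12.7 for ANG and 0.275 for DMBT1. LYZ held rank 38 to 314 among the genes retained in its station and lay above the 97.1th percentile in every library. ANG held rank 2940 to 7322, in the middle of the distribution, and DMBT1 held rank 9947 to 12114, near the bottom. The order LYZ, ANG, DMBT1 was found in each of the 23 libraries, where the FPKM of LYZ was 10.3 to 124.8 times that of ANG and the FPKM of ANG was 7.45 to 296 times that of DMBT1.

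The precision of the 3 genes differs accordingly. The libraries held 4826003 to 20053283 counted pairs in station A and 5577129 to 20434401 in station B. LYZ rested on 3329 to 19819 pairs per library, ANG on 32 to 408 and DMBT1 on 2 to 56. The median relative error from counting alone was 1.14% for LYZ, 11.3% for ANG and 26.7% for DMBT1. The lowest value of DMBT1, 0.218 CPM in non-pregnant heifer 5 of station B, came from 2 pairs and has an exact 95% Poisson interval of 0.0264 to 0.788 CPM. These intervals cover counting error only.

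Some libraries stood apart in their overall make-up. In station A the 100 most abundant genes (the 3 genes left out) took 21.8 to 27.0% of the counts in 5 libraries, 2 AI-pregnant and 3 NB-pregnant, and 11.9 to 15.9% in the other 6, 4 AI-pregnant and 2 NB-pregnant. The 5 top-heavy libraries were also the ones with the fewest pairs and with the fewest genes above 1 CPM, 11482 to 11920 against 12223 to 12456. In station B, 3 libraries (AI-pregnant heifer 3 and non-pregnant heifers 1 and 4) had 12166 to 12394 genes above 1 CPM and the other 9 had 9970 to 10905. Values with and without these libraries are given beside the results they touch. Lists of defining markers of the white cell types were not analysed, because the table of gene names matched none of the identifiers.

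**Figure D1:**
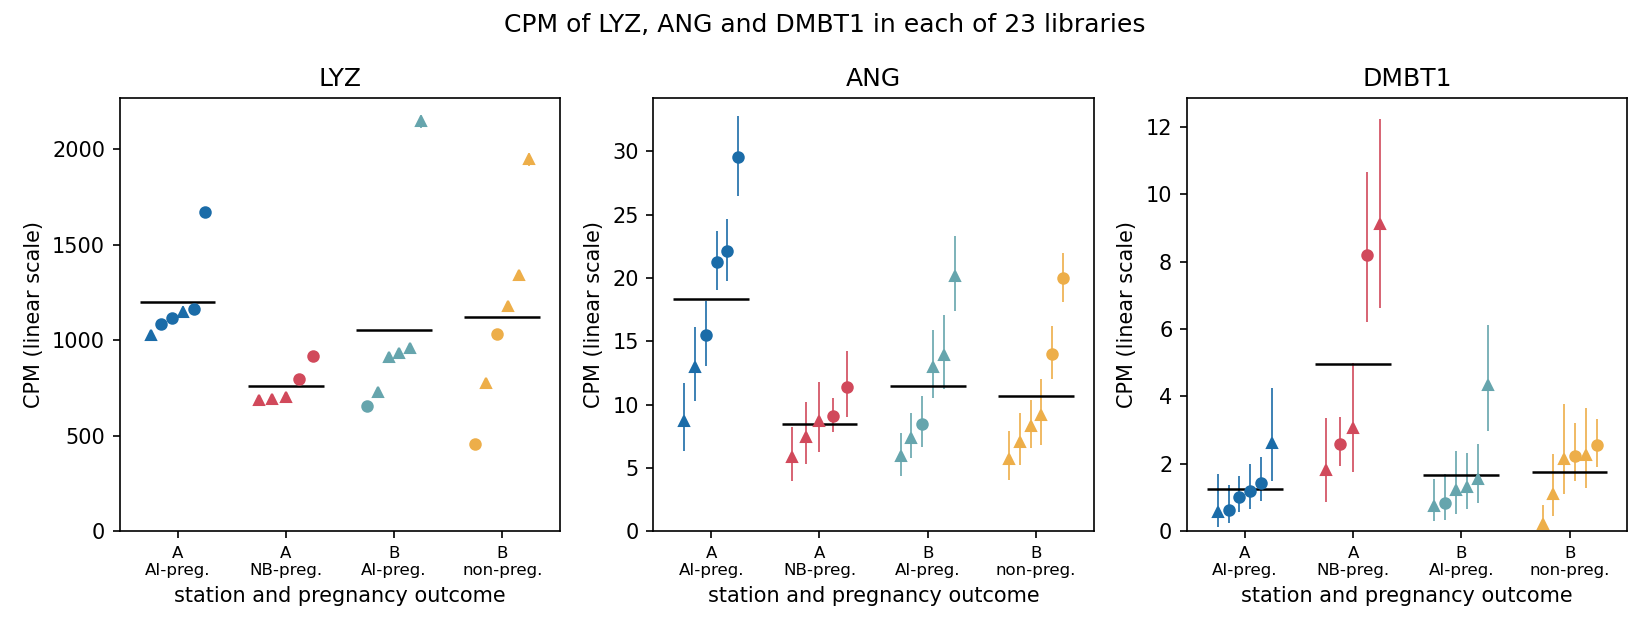
CPM of each gene (y axis, linear scale) in each library by station and pregnancy outcome (x axis), ordered by level within a group; bars are 95% Poisson counting intervals and black lines are group means. Circles are the libraries with more genes above 1 CPM in their station and triangles the libraries with fewer. LYZ of the 5 NB-pregnant heifers lies between 684 and 918 CPM, below the 6 AI-pregnant heifers of station A, while the outcomes of station B overlap for all 3 genes.

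In station A, the herd that chose the genes, LYZ and ANG were lower and DMBT1 was higher in NB-pregnant than in AI-pregnant heifers. LYZ was 1026, 1133 and 1671 CPM as the lowest, median and highest of the 6 AI-pregnant heifers. It was 701, 918, 795, 684 and 689.8 CPM in NB-pregnant heifers 1 to 5. The groups did not overlap, and their means were 1202 ± 235 (SD, n = 6) and 758 ± 100.4 CPM (SD, n = 5).

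ANG was 8.72, 18.4 and 29.5 CPM as the lowest, median and highest of the AI-pregnant heifers. In NB-pregnant heifers 1 to 5 it was 5.83, 11.4, 9.08, 7.47 and 8.70 CPM. AI-pregnant heifer 4, the lowest of its group, lay below 2 of the NB-pregnant heifers, so the groups overlapped, with means of 18.3 ± 7.45 (SD, n = 6) and 8.50 ± 2.06 CPM (SD, n = 5).

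DMBT1 went the other way. It was 0.582, 1.10 and 2.62 CPM as the lowest, median and highest of the AI-pregnant heifers, from 3 to 21 pairs. It was 1.82, 8.20, 2.59, 3.06 and 9.12 CPM in NB-pregnant heifers 1 to 5, from 10 to 56 pairs. Heifers 2 and 5 of the NB-pregnant group stood well above the other 3, and AI-pregnant heifer 5, at 2.62 CPM, lay above NB-pregnant heifers 1 and 3. The means were 1.25 ± 0.748 (SD, n = 6) and 4.96 ± 3.42 CPM (SD, n = 5).

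Fitted on counts with edgeR and TMM normalization factors, the log2 fold change of NB-pregnant over AI-pregnant heifers was -0.53 ± 0.20 (SE) for LYZ, -0.94 ± 0.27 for ANG and 2.12 ± 0.54 for DMBT1. Without normalization factors the values were -0.67, -1.11 and 1.98, while the median of all genes moved from 0.01 to -0.12. The rule of the study's methods asks edgeR and DESeq2 each for an unadjusted P no higher than 0.01. The paper ties that P to an empirical false discovery rate from randomized sample classes, which was not recomputed here. The rule called all 3 genes in station A, as it must for genes taken from its list. It called 0.148% of the 12128 genes tested there. LYZ was the only gene of the 3 that was lower in every NB-pregnant heifer than in any AI-pregnant heifer, which held for 0.115% of the genes tested in that herd. Neither share is evidence about the 3 genes, since this contrast selected them.

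The library make-up ran across the outcomes of station A and its part in these differences was not tested, but the values within each side can be given. Among the 5 top-heavy libraries LYZ was 1026 and 1150 CPM in the 2 AI-pregnant heifers and 684 to 701 CPM in the 3 NB-pregnant heifers. Among the other 6 libraries it was 1087 to 1671 CPM in AI-pregnant and 795 and 918 CPM in NB-pregnant heifers. Since LYZ did not overlap over the whole herd, it could not overlap on either side.

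The overlap of ANG over the whole herd was absent within the sides. ANG was 8.72 and 12.9 CPM in the 2 AI-pregnant against 5.83 to 8.70 CPM in the 3 NB-pregnant heifers with top-heavy libraries, so that the nearest values of the outcomes were 8.72 and 8.70 CPM. In the other libraries it was 15.5 to 29.5 against 9.08 and 11.4 CPM. ANG was therefore higher on the side with more genes detected in both outcomes.

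DMBT1 was 0.582 and 2.62 CPM in the AI-pregnant against 1.82 to 9.12 CPM in the NB-pregnant heifers with top-heavy libraries, where the outcomes overlapped. In the other libraries it was 0.636 to 1.44 against 2.59 and 8.20 CPM, without overlap. Leaving out each heifer in turn gave log2 fold changes of -0.59 to -0.44 for LYZ, -1.04 to -0.77 for ANG and 1.69 to 2.51 for DMBT1, which adds nothing to the direction, since the choice of the genes fixed it.

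**Figure D2:**
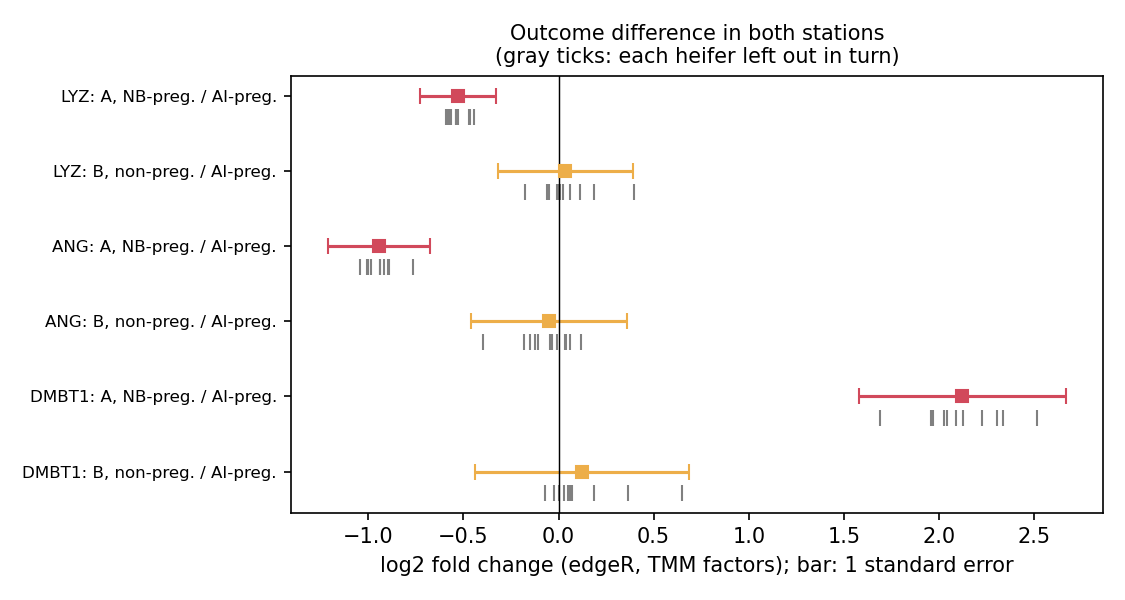
Log2 fold change of the later or failed outcome over AI-pregnant heifers (x axis, edgeR with TMM factors) for each gene and station (y axis); squares are the estimates, bars are 1 standard error and gray ticks are the estimates with each heifer left out in turn. The 3 values of station A lie away from 0 because the genes were selected there, and the 3 of station B lie within 0.13 of 0.

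Station B asks whether the same 3 messages differ at AI between heifers that conceived to AI and heifers open when its shorter season ended. None of the 3 differed there beyond the spread between heifers. LYZ was 656.7, 921 and 2146 CPM as the lowest, median and highest of the 6 AI-pregnant heifers and 454.7, 1104 and 1947 CPM of the 6 non-pregnant heifers. The ranges overlapped almost entirely, with means of 1056 ± 548 and 1121 ± 511 CPM (SD, n = 6 each).

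ANG was 5.91, 10.7 and 20.2 CPM as the lowest, median and highest of the AI-pregnant heifers and 5.73, 8.72 and 19.97 CPM of the non-pregnant heifers. Its extremes were nearly equal in both outcomes. The means were 11.5 ± 5.31 and 10.7 ± 5.35 CPM (SD, n = 6 each).

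DMBT1 was 0.750, 1.26 and 4.33 CPM as the lowest, median and highest of the AI-pregnant heifers and 0.218, 2.19 and 2.54 CPM of the non-pregnant heifers. The highest and the lowest values of the herd thus lay in different outcomes, the highest in an AI-pregnant heifer. The means were 1.66 ± 1.34 and 1.75 ± 0.898 CPM (SD, n = 6 each).

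In edgeR's quasi-likelihood test the log2 fold change of non-pregnant over AI-pregnant heifers was 0.04 for LYZ, with a standard error of 0.35, a 95% interval of -0.73 to 0.80 and an adjusted p of 0.969. For ANG it was -0.05 with a standard error of 0.41, an interval of -0.94 to 0.84 and an adjusted p of 0.962. For DMBT1 it was 0.12 with a standard error of 0.56, an interval of -1.10 to 1.35 and an adjusted p of 0.931. The intervals of LYZ and ANG include the values described in station A, that of ANG only at its lower end, and that of DMBT1 ends below the 2.12 described there.

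The exact permutation test of the mean CPM in station B, two-sided, gave p = 0.812 for LYZ, 0.816 for ANG and 0.900 for DMBT1, each 0.900 after adjustment over the 3 genes, where 6 against 6 heifers can give a p of 0.00216 at the smallest. No gene of that herd passed edgeR's quasi-likelihood test at an adjusted p of 0.05 (0% of 10832 genes tested), and DESeq2 gave 0. At an unadjusted p under 0.05 the quasi-likelihood test gave 48, fewer than no difference in any gene would give on average. The rule of the study's methods called 0.0554% of the genes of station B and none of the 3. The outcomes did not overlap, in either direction, for 0.0277% of the genes and for none of the 3.

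The genes of the list that chose LYZ, ANG and DMBT1 can be set beside them. Of its 18 genes, 16 passed the filter in station B, and none had an unadjusted quasi-likelihood p under 0.05 there, with 0.164 the smallest in edgeR. The sign in station B was that of station A for 2 of the 3 genes described here, ANG and DMBT1, and for 6 of the 13 others. In station B the tested genes of the list had log2 fold changes with a median size of 0.12, and the largest among LYZ, ANG and DMBT1 was 0.12.

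The AI-pregnant heifers of both herds, the same outcome, can be compared side by side. Herd cannot be told apart from any difference in sampling or sequencing between the stations, and no test was made. The mean LYZ was 1202 CPM in station A and 1056 CPM in station B, and the range of station B, 656.7 to 2146 CPM, contained that of station A, 1026 to 1671 CPM. Mean ANG was 18.3 and 11.5 CPM, with overlapping ranges of 8.72 to 29.5 and 5.91 to 20.2 CPM. Mean DMBT1 was 1.25 and 1.66 CPM, with ranges of 0.582 to 2.62 and 0.750 to 4.33 CPM.

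The spread of each gene was smaller in several groups when 1 heifer was left out. That heifer was the highest or lowest of its group, and leaving out such a value lowers a spread by construction. The coefficient of variation of LYZ within a group was 19.5% and 13.3% in the AI-pregnant and NB-pregnant heifers of station A, but 51.9% and 45.5% in the AI-pregnant and non-pregnant heifers of station B. Without the highest heifer of each it was 4.98% (without AI-pregnant heifer 2) and 7.27% (without NB-pregnant heifer 2) in station A, and 16.2% for AI-pregnant heifers of station B without heifer 4. In non-pregnant heifers it was 36.5% without the highest, heifer 6. Counting alone gives 0.869 to 1.61% as group medians. For ANG the coefficient of variation was 40.6% and 24.3% in station A and 46.2% and 50.0% in station B. For DMBT1 it was 60.0% and 69.0%, then 80.9% and 51.2%, where counting alone gives 15.1 to 32.8% as group medians. Without 1 heifer it fell to 37.5% in AI-pregnant heifers of station A (without heifer 5), 29.6% in those of station B (without heifer 6) and 26.6% in non-pregnant heifers (without heifer 5), the last pair close to counting error. In NB-pregnant heifers it was 59.1 to 80.8% whichever heifer was left out.

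The dispersion estimated with edgeR puts these spreads beside those of other genes. The biological coefficient of variation of LYZ was 0.26 in station A, the 13.3th percentile of the genes tested, and 0.45 in station B, the 37.8th percentile. Without AI-pregnant heifer 4 of station B it was 0.38 there, the 15.1th percentile. For ANG it was 0.33 in station A, at the 32.6th percentile, and 0.56 in station B, at the 62.5th. DMBT1 lay at the 81.4th and 70.7th percentiles with 0.58 and 0.65. Station A was used to choose the genes, so the difference between herds was not tested.

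The library make-up of station B gave no difference in the 3 genes that passed a test. The 3 libraries with the largest share of counts in the most abundant genes (16.0 to 17.0% against 12.6 to 15.2%) differed from the other 9 in log2(CPM + 0.5) by -0.09 for LYZ, -0.26 for ANG and 0.63 for DMBT1, with p = 0.855, 0.545 and 0.223 in two-sided exact permutation tests, where 3 against 9 libraries can give 0.00455 at the smallest. On the 3 libraries with the most genes above 1 CPM the order changed. There LYZ was 454.7, 656.7 and 1031 CPM against 729.8 to 2146 CPM in the other 9.

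On this second split the log2 difference was -0.74 for LYZ, with an exact permutation p of 0.0727 and 0.218 after adjustment over the 3 genes. ANG was higher by 0.50 in the 3 libraries, at 8.48, 14.0 and 19.97 CPM, with an exact permutation p of 0.236, and DMBT1 differed by 0.23 with an exact permutation p of 0.618. LYZ and the number of genes above 1 CPM correlated with r = -0.45 over the 12 libraries of station B and r = 0.38 over the 11 of station A. For ANG the values were 0.47 and 0.67, and for DMBT1 0.15 and 0.00. Spearman's rho was -0.22 in station B and 0.21 in station A for LYZ, and 0.54 and 0.63 for ANG. These correlations are given as a description, since both measures come from the same library. Outcome means were not removed from them. In station A 4 of the 6 gene-rich libraries were AI-pregnant, so the contrast that chose the genes enters the values of that herd.

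Without the 3 gene-rich libraries, a choice made after the data had been seen, the outcomes of station B came apart most for ANG. The 5 remaining AI-pregnant heifers had 5.91, 7.40, 13.9, 20.2 and 13.0 CPM and the 4 remaining non-pregnant heifers 5.73, 9.14, 8.29 and 7.05 CPM. The log2 fold change became -0.71, with an unadjusted p of 0.0499 and an adjusted p of 1.0 in edgeR's quasi-likelihood test, and the ranges still overlapped. LYZ became 0.14 and DMBT1 -0.40, and 1 gene in all passed the adjusted threshold, none of the 3.

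**Figure D3:**
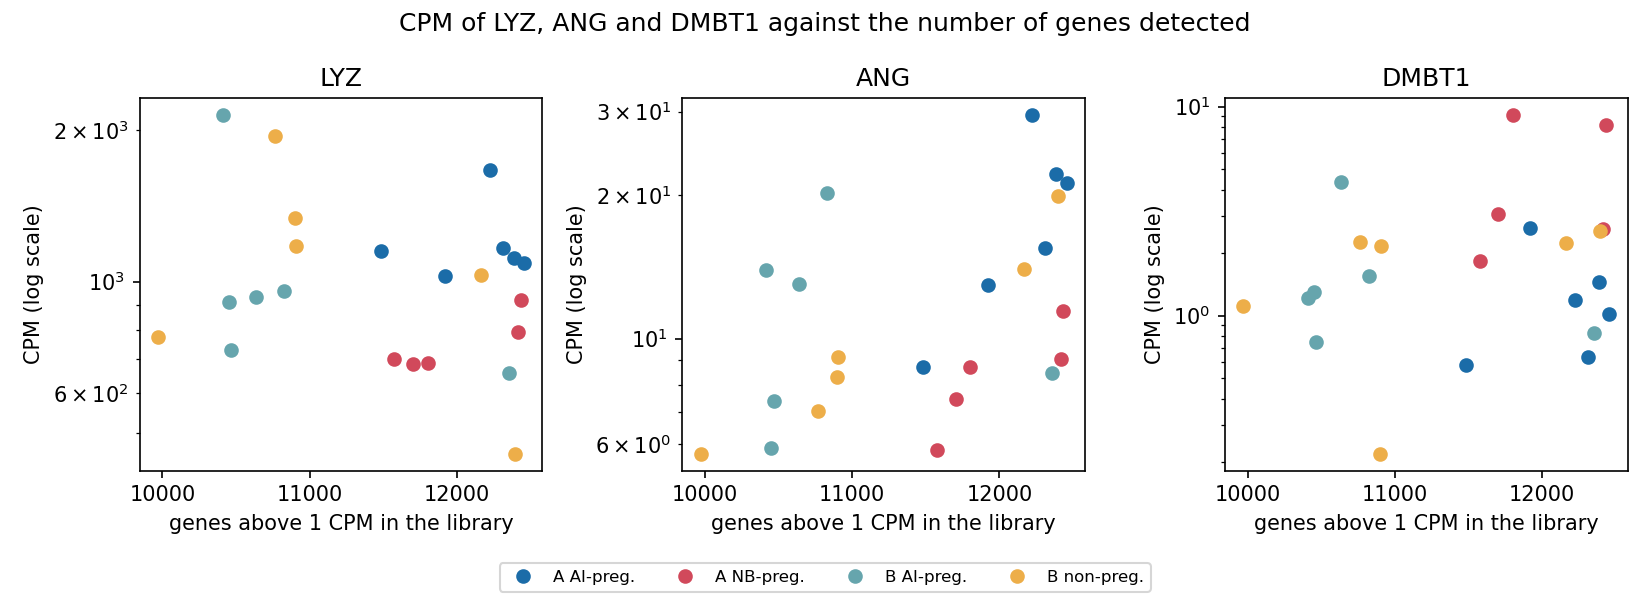
CPM of each gene (y axis, log scale) against the number of genes above 1 CPM in the library (x axis) for the 23 libraries, coloured by station and outcome. ANG is higher in the gene-rich libraries of station A (9.08 to 29.5 CPM) than in the gene-poor ones (5.83 to 12.9 CPM), and LYZ of station B is lowest in a gene-rich library, at 454.7 CPM.

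The relation of the 3 genes to each other was taken over the 23 libraries on deviations of log2(CPM + 0.5) from the means of the 4 groups, so that the outcome difference that chose them does not enter. For ANG and DMBT1 Pearson's r was 0.41 (permutation p = 0.0624, adjusted over the 3 pairs 0.187) and Spearman's rho was 0.47 (permutation p = 0.0289, adjusted 0.0867). Neither passed after adjustment. Among the 10421 other genes retained in both herds, DMBT1 held rank 3047 by its r with ANG. ANG held rank 46 by its r with DMBT1. The value of r was 0.38 in station A alone and 0.43 in station B alone, 0.39 without the 2 libraries farthest from the median, and 0.62 and 0.43 over the 6 and 9 libraries on the larger side of the share split of stations A and B.

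The ANG and DMBT1 relation kept its sign under other handling of depth and make-up, and its test did not keep its side of the threshold. With deviations also from the share of counts in the most abundant genes, r was 0.48 (adjusted permutation p = 0.0795) and rho 0.58 (adjusted permutation p = 0.0134). With TMM effective library sizes rho was 0.55 (adjusted permutation p = 0.0217) and r 0.42 (adjusted permutation p = 0.177). In the 9 libraries of station B with fewer genes detected, r was 0.23 (permutation p = 0.590).

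LYZ had a Pearson's r near 0 with both of the others over all libraries. For LYZ and ANG r was 0.02 (permutation p = 0.951, adjusted 0.951) and rho 0.29 (permutation p = 0.224, adjusted 0.336). For LYZ and DMBT1 r was -0.04 (permutation p = 0.886, adjusted 0.951) and rho 0.05 (permutation p = 0.820, adjusted 0.820). Without the 2 farthest libraries r was 0.24 and 0.13, and neither pair passed.

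By herd, the r of LYZ and ANG was 0.62 in station A (permutation p = 0.0709, adjusted 0.213) and 0.74 over the 6 libraries there with less top-heavy counts (permutation p = 0.231), but -0.13 in station B (permutation p = 0.697), and the difference between the herds was not tested. Non-pregnant heifer 4 had the lowest LYZ of all 23 heifers, 454.7 CPM, with ANG at 19.97 CPM, whereas the heifers with the most LYZ in station B, AI-pregnant heifer 4 at 2146 CPM and non-pregnant heifer 6 at 1947 CPM, had 13.9 and 7.05 CPM of ANG. Over the 23 libraries r was 0.36 without non-pregnant heifer 4, and in the 9 libraries of station B with fewer genes detected it was 0.37 (permutation p = 0.428).

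**Figure D4:**
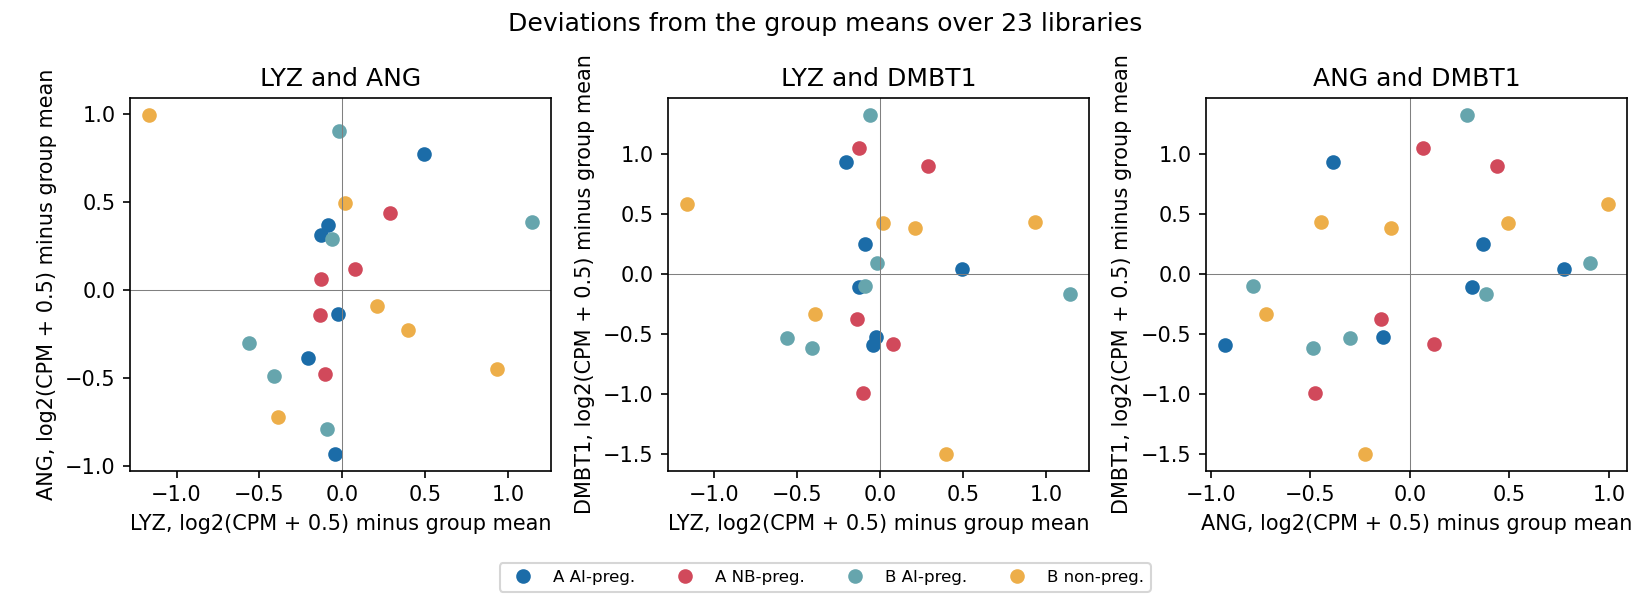
Deviations of log2(CPM + 0.5) from the group mean for each pair of genes (x and y axes, log2 units), 1 point for each of 23 libraries, coloured by station and outcome. ANG and DMBT1 have r = 0.41, which did not pass after adjustment, and the r of LYZ is 0.02 with ANG and -0.04 with DMBT1.

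The genes whose pattern was most like that of each gene were sought among the 10421 others retained in both herds, on the same deviations over 23 libraries and as a description. The r of ENSBTAG00000000203 with LYZ was the highest, 0.88 (0.49 over the heifers of station A, 0.92 over those of B), and the lowest was that of ENSBTAG00000001224 at -0.80. For ANG the highest was ENSBTAG00000006665 at 0.86 (0.89 over the heifers of station A, 0.84 over those of B), and the lowest ENSBTAG00000000221 at -0.78. The files pair these identifiers with no name.

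DMBT1 had no partner as close. Its highest r was 0.59 and its lowest -0.60, and 5th and 95th percentiles over all genes were -0.24 and 0.23, against -0.51 and 0.59 for LYZ and -0.49 and 0.61 for ANG. Its median counting error was 26.7%, against 11.3% for ANG and 1.14% for LYZ.

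Symbols were at hand for the other genes of the station A list, which were set beside the 3 genes in the same way. P2RY12, a receptor for ADP known from platelets and microglia, had the highest r with LYZ, 0.74 (0.53 in station A and 0.80 in station B), rank 43 among the 10421 genes. Between outcomes it did not share the direction of LYZ in station A, where its log2 fold change was 1.16 ± 0.37 (SE) against -0.53 for LYZ. In station B the log2 fold change of P2RY12 was 0.25 ± 0.51 (SE), with an adjusted p of 0.875 in edgeR's quasi-likelihood test.

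ANG had its highest r on that list with SIGLEC14, a sialic acid-binding receptor of myeloid cells, at 0.59 (0.60 in each station). That was rank 646 among the 10421 genes, below the 95th percentile of 0.61 for ANG. Its lowest r on the list was with MNS1, a gene known from the ciliary and flagellar axoneme, at -0.67. The log2 fold change of SIGLEC14 in station A was -1.19 ± 0.28 (SE), on the side of ANG. With LYZ and ANG left aside, the value farthest from 0 for DMBT1 on the list was -0.36, with UGT8, an enzyme that makes galactosylceramide.

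FCER1A, the alpha chain of the high-affinity IgE receptor of basophils and mast cells, had an r of 0.50 with LYZ (0.63 over the heifers of station A, 0.54 over those of B), 0.29 with ANG (0.78 and -0.07) and 0.03 with DMBT1. Among the 10421 genes these values over all libraries held ranks 1218, 4457 and 5034. Its log2 fold change in station A, where it was chosen by the same contrast, was -1.17 ± 0.35 (SE), on the side of LYZ and ANG, and 0.09 ± 0.38 (SE) in station B. The part of such cells in the levels of LYZ and ANG was not tested.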

How the data were processed

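RNA of PWBC was sequenced from TruSeq Stranded mRNA libraries, 1 per heifer. The authors aligned the reads to the bovine genome UMD 3.1, removed read pairs with several alignments or many mismatches, removed duplicates, and used HTSeq to count what was left on Ensembl genes. The aligner and the strand setting are not given in the sources used here. The deposited counts are whole numbers without normalization. The deposited FPKM are these counts divided by gene length and library total, for genes above 1 CPM in at least 6 libraries of a station (12128 genes for A, 10832 for B). LYZ, ANG and DMBT1 passed this filter in both stations. FPKM were used only to compare levels between genes. Columns of no known sample numbered 0.

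Counts of each station were fitted apart with edgeR 4.0.16 (R 4.3.3, limma 3.58.1), using TMM factors, the quasi-likelihood test and Benjamini-Hochberg adjustment over all retained genes. DESeq2 1.42.0 was an alternative. Mean CPM of the outcomes were tested by exact permutation, two-sided, and correlations with permutation tests that reassigned deviations within groups (100000 resamples, in Python 3.11.15 with numpy 2.4.6, scipy 1.17.1 and pandas 2.3.3; plots with matplotlib 3.10.9). The pseudocount was 0.5 CPM. Libraries were split by make-up, at the widest gap that leaves 3 or more on each side, on the share of counts in the 100 most abundant genes or, as an alternative, on the number of genes above 1 CPM. No libraries of a group agreed within sampling noise (the lowest chi-square per degree of freedom was 11.4), so each heifer is a replicate. The p-values measure the spread between heifers, each with 1 library, so differences in library make-up enter that spread. The scripts were checked on simulated data.

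LYZ, ANG and DMBT1, and the lists, were chosen with earlier results of these data known. Other genes are named where their deviations were most or least like those of the 3 genes, or where they are on the station A list of the study. Lists of lysozyme, RNase A and scavenger receptor relatives, granule and pattern recognition proteins, and white cell markers were not analysed, because 0 of the identifiers matched the table of gene names. Alternatives were other normalization, filters, tests, covariates and pseudocounts, each heifer left out, and parts of the libraries. Chosen with the data in view were the fits without the 3 gene-rich libraries of station B, the relations over the other 9, the number of genes as a covariate, station B without its 2 farthest libraries, and the coefficients of variation with each heifer left out.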

Additional observations from a re-analysis of the deposited data

Results flagged for a closer look

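Of 12 groups of values (3 genes in 4 groups of heifers), 3 held a heifer far from the others of its group by Dixon's test at the 95% level, where chance gives about 1 in 20 groups. LYZ of AI-pregnant heifer 2 of station A was 1671 CPM, against 1026 to 1165 CPM in the other 5. LYZ of AI-pregnant heifer 4 of station B was 2146 CPM, against 656.7 to 959 CPM in the other 5. DMBT1 of AI-pregnant heifer 6 of station B was 4.33 CPM from 32 pairs, against 0.750 to 1.54 CPM from 7 to 14 pairs in the other 5. All 3 values were the highest of an AI-pregnant group. LYZ of heifer 4 of station B rests on 14168 pairs and that of heifer 2 of station A on 19819. Neither heifer had an extreme DMBT1, at 1.21 and 1.18 CPM, while heifer 2 of station A also had the highest ANG of all, 29.5 CPM. The cause of these values was not tested.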

How the results depend on the processing

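Of 99 values computed under alternatives that keep all heifers or leave out a set of them, 80 stayed the same, 15 changed sign and 4 moved. The 4 that moved are numbers of genes called, and the rule of the study's methods uses an unadjusted threshold. The cause of the other changes was not tested. For tested values, the same means the same direction and side of the threshold. For log2 fold changes of station A it means a shift smaller than the spread between heifers, and their direction was fixed by the choice of the genes. For genes called it means an alike number. No log2 fold change of station B passed the adjusted threshold under any setting (adjusted p 0.821 to 1.0 for LYZ, 0.793 to 1.0 for ANG and 0.663 to 1.0 for DMBT1). ANG of station B was 0.0193 with more than 1 CPM required in every library and 0.21 without the smaller side of the share split, and DMBT1 was -0.0184 with the first principal component as covariate and -0.40 without the 3 gene-rich libraries. Genes called numbered 18 in station A and 6 in station B by the rule of the study's methods against 0 in both, 2 in station A with DESeq2, and 1 in station B without the gene-rich libraries. LYZ and ANG had r = -0.11 with TMM, -0.13 in station B, -0.22 on its larger share side and -0.0021 with the share as covariate. LYZ and DMBT1 had r = 0.0613 in station A, 0.13 without the 2 farthest libraries, 0.32 on the larger side of station A, 0.075 in the 9 gene-poor libraries of station B, 0.0238 with the number of genes as covariate and 0.17 in station B without its 2 farthest. ANG by make-up in station B was 0.50 on the gene number split against -0.26. With each heifer left out, station B gave -0.18 (without non-pregnant heifer 6) to 0.39 (without AI-pregnant heifer 4) for LYZ, -0.40 (without non-pregnant heifer 4) to 0.12 (without AI-pregnant heifer 5) for ANG and -0.0729 (without non-pregnant heifer 4) to 0.65 (without AI-pregnant heifer 6) for DMBT1, with none called. The r of LYZ and ANG was -0.10 (without AI-pregnant heifer 4 of station B) to 0.36 (without non-pregnant heifer 4), and that of LYZ and DMBT1 -0.12 (without non-pregnant heifer 6) to 0.10 (without non-pregnant heifer 4). The r of ANG and DMBT1 was 0.36 to 0.49. DMBT1 fell below the filter with more than 1 CPM in every library, and in station A without the smaller share side. No paired analysis was possible because heifers are numbered in the order of deposit and each is in 1 group. Depth limits DMBT1, at 2 to 56 pairs, most.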

Other observations

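Among the 10421 genes compared, the median r was 0.08 with LYZ, 0.21 with ANG and 0.02 with DMBT1, on within-group deviations over 23 libraries. The second gene most like LYZ had r = 0.87 over all libraries, but 0.27 in station A and 0.92 in station B, while the second most like ANG had 0.82, with 0.86 in station A and 0.79 in station B. LYZ ranged from 454.7 to 2146 CPM in station B and from 684 to 1671 CPM in station A. All these values are a description.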
